A study of Homo sapiens with 6 samples.

Results

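The genes described here encode enzymes that make asparagine, alanine, aspartate, argininosuccinate, proline, cysteine and glutamine. They are ASNS, GPT2, GOT1, ASS1, PYCR1, ALDH18A1, CBS, CTH and GLUL, chosen by symbol, and they are 9 of the 19470 genes in the count table. All 9 were found in the table and passed the filter on low counts. RNA came from HCCC9810 cells, an established human cholangiocarcinoma (CCA) line whose genotype is given as wild type, and both groups were collected after 24 h. The control group received the vehicle DMSO, and the ILL group received isolinderalactone (ILL), a plant sesquiterpene lactone, at 20 μM. Each group held 3 libraries of this single line at a single dose and time, and the labels do not say whether the libraries came from separate cultures, so the p-values measure the spread between these libraries.

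Cells can build most of these amino acids from intermediates of the citric acid cycle and from glutamate. Aspartate is formed by aminotransferases of the cytosol and of mitochondria, and ASNS then converts it to asparagine with glutamine as the nitrogen donor. Glutamate is also the start of proline, through ALDH18A1, which makes pyrroline carboxylate, and through PYCR enzymes, which reduce it to proline. Homocysteine is turned into cysteine by CBS and then CTH, in the transsulfuration pathway. Several of these genes, ASNS above all, are well-known targets of ATF4, a transcription factor whose translation rises when amino acids are short or the endoplasmic reticulum is stressed.

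Total counts lay between 34282764 and 37758569 per library, and 13066 genes were tested between ILL and control with edgeR's quasi-likelihood test. A differentially expressed gene (DEG) needed a change of over 2-fold (or to under 0.5) together with an adjusted p-value below 0.05, as in the methods of the study. Levels are given as CPM, read counts brought to a common library total with edgeR's TMM method, unless another unit is named. The cholangiocyte markers were checked first, and 6 of 7 were at a mean of at least 1 CPM. Their summed level was 8805 to 9034 CPM in control libraries and 8524 to 9016 CPM in ILL libraries. Among markers of other cell types, the summed leukocyte list was between 36.0 and 40.9 CPM in controls and between 111 and 117 CPM with ILL. Of its 4 genes only CD68, a lysosomal glycoprotein, was at 1 CPM or more. The hepatocyte list (3 of 6 genes at 1 CPM or more, CYP3A4 at 0) summed to between 27.9 and 32.2 CPM in controls and between 27.8 and 43.0 CPM with ILL, the fibroblast list (1 of 5) to between 9.66 and 12.2 and between 13.2 and 17.0 CPM, and the endothelial list (0 of 3) to between 1.004 and 1.651 and between 1.69 and 1.91 CPM. By the DEG rule, 1 of 3 tested endothelial genes and the 1 tested leukocyte gene were higher with ILL, as were 12.5% of all tested genes. None of the tested cholangiocyte, hepatocyte or fibroblast markers was a DEG. The part of other cell types in the results was not tested. In these bulk libraries, fewer cells with a transcript and less transcript per cell cannot be told apart.

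Of the 9 enzyme genes, ILL left 5 as DEGs in the upward direction and 0 in the downward one, while 12.5% of all tested genes were DEGs upward and 11.4% downward. ASNS, CBS, ASS1, GPT2 and CTH were the DEGs. At an adjusted p-value under 0.05 without a fold cutoff, PYCR1 was also higher and ALDH18A1 was lower, against 36.2% and 36.9% of all tested genes in those directions and 73.1% in either. GLUL and GOT1 were not called under either rule. In 6 genes every ILL library lay above every control library and in 1 gene every ILL library lay below, where 37.5% and 38% of all tested genes did so, and 75.4% in either direction. The median log2 fold change of the 9 genes was 1.63, and over all tested genes it was -0.0012. The responses ranged from ASNS, which rose 13.2-fold, to ALDH18A1, which fell by 30.3%.

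**Figure D1:**
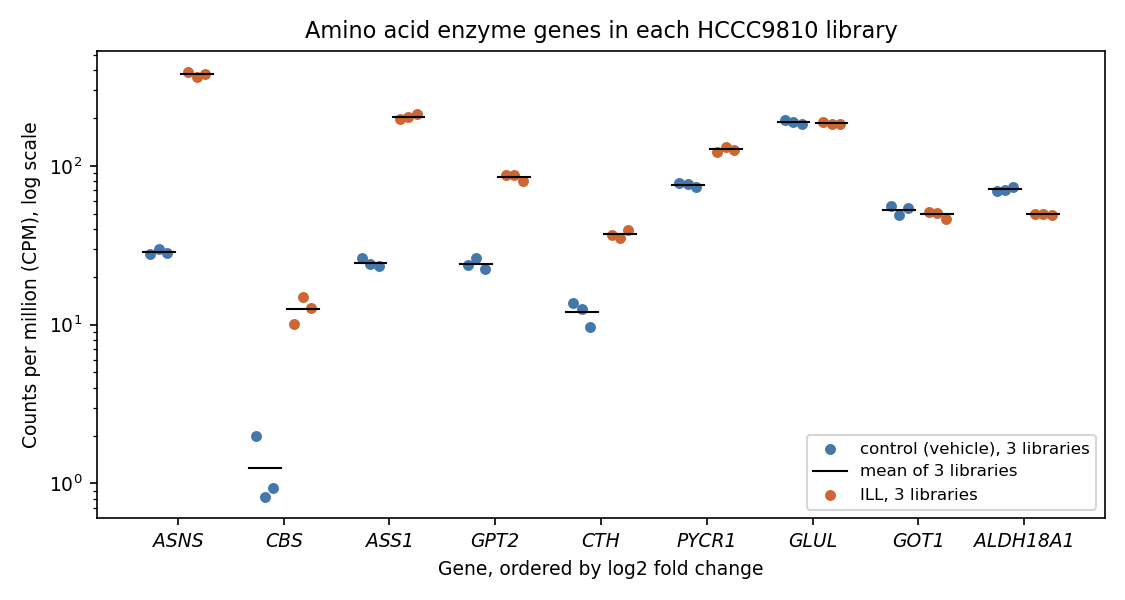
Level of each of the 9 genes in every library, in CPM on a log axis, with control libraries in blue, ILL libraries in orange and the mean of each group as a bar. The groups lie apart for ASNS, CBS, ASS1, GPT2, CTH, PYCR1 and ALDH18A1, the last with ILL below control, and overlap for GLUL and GOT1.

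ASNS, on chromosome 7 of GRCh38 from 97852118 to 97872542, encodes asparagine synthetase. It was at 27.7, 29.8 and 28.1 CPM in the control libraries and at 390, 363 and 376 CPM in the ILL libraries. The replicates of each group lay close together and the groups were far apart. Its log2 fold change of 3.72 (standard error 0.06, edgeR adjusted p = 4.0e-24) was the 71st highest of all tested genes, and without any 1 library it stayed between 3.70 and 3.75. The enzymes that split asparagine were low. ASPG had 0 or 1 counts in each library, and ASRGL1 had 26, 30 and 46 counts in controls and 10, 16 and 20 with ILL. ASRGL1 was a DEG lower with ILL at an adjusted p of 0.0478 from edgeR, which was lost without control replicate 2 or 3 or without any of the ILL replicates, where the highest adjusted p was 0.231. Of the 100-base windows of the longest coding ASNS transcript, 79.4% also occur in AC079781.5, an overlapping gene on the same strand that is not a row of the table, so reads of both cannot be told apart. GENCODE also lists 4 pseudogenes named after ASNS, none a row of the table.

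RefSeq promoter windows (GRCh38.p14), from 250 bases before to 50 bases after each annotated start, were matched to 7 of the 9 genes, and GPT2 and PYCR1 had no match. They were searched on both strands for TGATGNAAN, the composite element at which C/EBP and ATF proteins pair, for TGACNNNGC, the core of the antioxidant response element, and for CACGTG, the E-box. The stretches that hold these letters are shown because ATF4, NRF2 and MYC family factors are known to act through them, with the matched letters in capitals, 5′ to 3′ on the strand of the gene.
ASNS: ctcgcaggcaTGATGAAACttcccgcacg
GOT1: aattgcattgGTTGCATCAttctcggcag
CBS: ccggctctggGCGCGGTCAcgcggggcgc
ASS1: gcgtccccgcCACGTGtccccggtca
ALDH18A1: gctggcccgcCACGTGgagcgctggc

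The composite element was found in 2 of the 7 genes, ASNS and GOT1, against 3.61% of all 35116 windows and 2.74% of the 10482 tested genes with a window. The 7 genes have 12 windows, and a gene was counted if any of its windows held the letters. Shares of all windows count single windows, so they are not a like measure to the counts of genes. In ASNS (chr7:97872458-97872486, minus strand) the letters begin 68 bases before the start and read along the gene. In GOT1 (chr10:99430805-99430833, minus strand) they begin 199 bases before the start and lie on the opposite strand. Both stretches fall in an exon and untranslated region of 1 GENCODE transcript. ASNS rose most of the 9 genes, and GOT1 did not pass the test. The antioxidant core lies in the CBS window (chr21:43076442-43076470, minus strand), inside an intron of 1 GENCODE transcript, and is present in 13.3% of all windows and 19.4% of those tested genes. An E-box was present in ASS1 (chr9:130444880-130444905, plus strand), which rose, and in ALDH18A1 (chr10:95656832-95656857, minus strand), which fell, and in 7.26% of all windows and 12.3% of those tested genes. None of the 3 motifs lay within 50 bases of a RefSeq start of these genes. These distances are counted from RefSeq starts, and the GENCODE gene positions given here can differ from them, as for ASS1. A match describes the letters and not the binding of a factor, and binding was not measured in these libraries.

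ASS1, on chromosome 9 from 130444929 to 130501274, encodes argininosuccinate synthase, which joins citrulline to aspartate on the way to arginine. Its levels were 26.3, 24.0 and 23.5 CPM in controls and 198, 202 and 213 CPM with ILL, with no overlap. The log2 fold change was 3.05 (standard error 0.06, edgeR adjusted p = 2.3e-22), an 8.30-fold rise with a 95% interval from 7.58 to 9.08. ASL, which cleaves argininosuccinate in the next step, was at 52.4, 51.9 and 59.3 CPM in controls and 51.7, 47.5 and 53.1 CPM with ILL, and did not pass the test (log2 fold change -0.10, edgeR adjusted p = 0.192), although it did with library size in place of TMM (-0.17, edgeR adjusted p = 0.0310). The count ratio of ASS1 to ASL thus went from between 0.396 and 0.502 in controls to between 3.82 and 4.25 with ILL, an 8.91-fold difference. ARG2, the mitochondrial arginase that breaks arginine down to ornithine and urea, was at 15.2, 15.5 and 14.8 CPM in controls and rose to 146, 128 and 135 CPM with ILL, a log2 fold change of 3.17 (edgeR adjusted p = 5.6e-22). ARG1 and OTC were at 0 counts in all libraries. GENCODE lists 11 processed or other copies named after ASS1, none a row of the table, but no 100-base window of the longest coding ASS1 transcript occurs in the transcripts of another gene.

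GPT2 and GOT1 are aminotransferases that exchange an amino group with glutamate, GPT2 for alanine in mitochondria and GOT1 for aspartate in the cytosol. GPT2, on chromosome 16 from 46884378 to 46931297, was at 23.6, 26.4 and 22.4 CPM in controls and at 87.9, 87.3 and 80.5 CPM with ILL. All ILL libraries stood above all controls, with a log2 fold change of 1.82 (standard error 0.07, edgeR adjusted p = 3.5e-17), or 3.53-fold. Its cytosolic counterpart GPT was barely counted, with 5, 0 and 22 counts in controls and 16, 6 and 15 with ILL. The fitted GPT value of 0.50 turned to -0.07 without control replicate 2 and to 2.34 without control replicate 3.

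GOT1, on chromosome 10 from 99396870 to 99431569, was at 55.6, 49.0 and 54.4 CPM in controls and at 51.2, 50.7 and 46.4 CPM with ILL, and the groups overlapped. The fold was 0.932 with a 95% interval from 0.845 to 1.03 (edgeR adjusted p = 0.189). With library size in place of TMM, GOT1 passed the test at a log2 fold change of -0.17 (edgeR adjusted p = 0.0294). GOT2, the mitochondrial aspartate aminotransferase, fell from 173 ± 5.87 CPM to 123 ± 1.16 CPM (SD, n = 3 each), a log2 fold change of -0.50 (edgeR adjusted p = 6.2e-09). The count ratio of GOT1 to GOT2 was 0.331, 0.283 and 0.303 in controls and 0.417, 0.417 and 0.374 with ILL. Of the 100-base windows of the longest GOT1 transcript, 19.5% are shared with AL391684.1, a gene on the opposite strand, and the strand used in counting is not given in the sources used here.

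The proline branch split. ALDH18A1, on chromosome 10 from 95605929 to 95656706, encodes pyrroline carboxylate synthase, the first enzyme from glutamate to proline. It was at 69.2, 70.3 and 73.4 CPM in controls and at 49.76, 49.97 and 48.67 CPM with ILL, the only member whose ILL libraries all lay below control. The log2 fold change was -0.52 (standard error 0.06, edgeR adjusted p = 3.7e-08), so the level fell by 30.3% and stayed under the 2-fold cutoff. PYCR1, on chromosome 17 from 81932384 to 81942412, encodes the mitochondrial reductase of the last step. It was at 77.5, 77.2 and 73.3 CPM in controls and at 122, 132 and 126 CPM with ILL. The rise was 1.67-fold, with a 95% interval from 1.54 to 1.81 (log2 fold change 0.74, standard error 0.06, edgeR adjusted p = 1.9e-11). The first and last enzymes of the same route thus moved in opposite directions, each outside the spread of its replicates.

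PYCR3, the cytosolic form of the reductase, moved against PYCR1. It fell from 33.8, 31.4 and 33.8 CPM to 13.8, 14.0 and 13.2 CPM, a log2 fold change of -1.27 (standard error 0.08, edgeR adjusted p = 1.2e-12), and was a DEG. The count ratio of PYCR1 to PYCR3 went from between 2.17 and 2.46 to between 8.80 and 9.59.

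Other enzymes that make or use pyrroline carboxylate were OAT, ALDH4A1 and PRODH. OAT, which makes it from ornithine, had a log2 fold change of -0.23 (edgeR adjusted p = 0.000892), and ALDH4A1, which oxidises it to glutamate, one of 0.29 (edgeR adjusted p = 0.00202). PRODH, which oxidises proline, had 2, 0 and 0 counts in controls and 13, 33 and 55 with ILL. The ratio of summed PRODH counts was 52.9 after scaling, with an exact Clopper-Pearson 95% interval from 14.3 to 443 that covers counting error only, and its fitted fold change depends on the prior count. Without control replicate 1, PRODH had no control counts left and its fitted log2 value went from 5.48 to 8.08. Of the 100-base windows of the longest PYCR1 transcript, 16.1% are shared with AC145207.4, a gene on the opposite strand, and MYADML2, which is a row of the table, overlaps PYCR1 on its own strand.

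CBS and CTH, the enzymes of transsulfuration, were both DEGs higher with ILL. CTH, on chromosome 1 from 70411218 to 70439851, encodes cystathionine gamma-lyase, which releases cysteine. It was at 13.6, 12.6 and 9.61 CPM in controls and at 36.6, 35.2 and 39.4 CPM with ILL, with no overlap. Its log2 fold change was 1.63 (standard error 0.10, edgeR adjusted p = 4.1e-13), or 3.10-fold.

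CBS, on chromosome 21 from 43053191 to 43076943, encodes cystathionine beta-synthase and was the lowest of the 9 genes by FPKM. It had 77, 29 and 33 counts in controls and 354, 510 and 447 with ILL. Every ILL library lay well above every control, while control replicate 1, at 1.98 CPM, stood above the other controls at 0.825 and 0.933 CPM. The log2 fold change was 3.31 (standard error 0.23, edgeR adjusted p = 3.4e-12), a 9.94-fold rise with a 95% interval from 7.13 to 13.9. CBSL is annotated as a second copy on the same chromosome from 6444869 to 6468040, and 92.4% of the 100-base windows of the longest coding CBS transcript occur in it. CBSL had 70, 1 and 0 counts in controls and 229, 204 and 219 with ILL, so reads from a single sequence may be divided between both rows. The divided shares were not constant, since CBSL held nearly as many counts as CBS in control replicate 1 and at most 1 count in the other controls.

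With the rows summed, CBS and CBSL together had 147, 30 and 33 counts in controls and 583, 714 and 666 with ILL, and the log2 fold change was 3.31 (standard error 0.29, edgeR adjusted p = 1.7e-10). Without control replicate 1 the summed value was 4.39 and that of CBS alone was 3.83, and limma on log2 of FPKM plus 1 gave CBS 1.73. The direction and the call were the same in each case, and the size of the rise depended on that library and on the scale. The count ratio of CTH to CBS was 6.86, 15.3 and 10.3 in controls and 3.62, 2.38 and 3.08 with ILL.

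**Figure D2:**
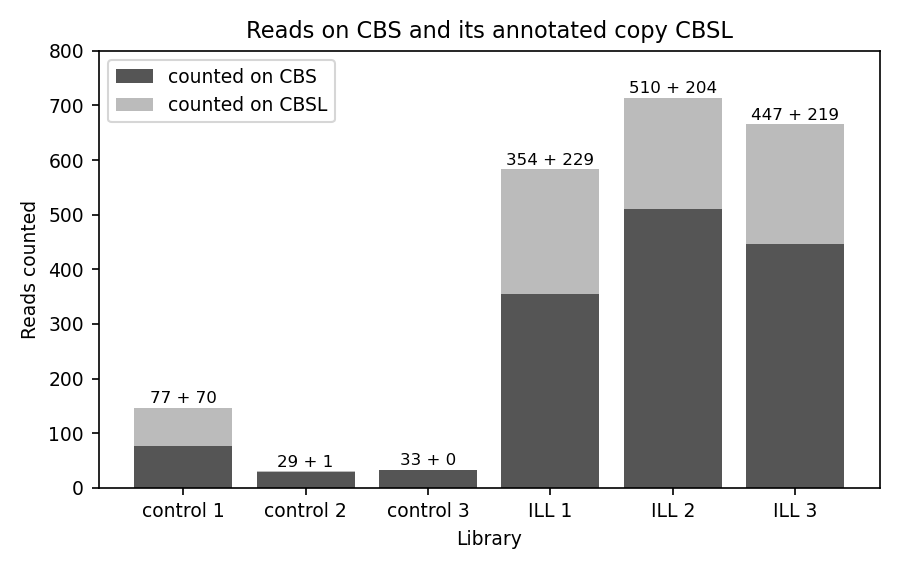
Reads counted on CBS (dark) and on its annotated copy CBSL (light) in each library, stacked, with both counts printed above each bar. Control replicate 1 held 147 reads on both rows together and the other controls 30 and 33, while ILL libraries held between 583 and 714.

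GLUL, on chromosome 1 from 182381704 to 182392206, encodes glutamine synthetase, which makes glutamine from glutamate and ammonia. It was at 194, 188 and 184 CPM in controls and at 189, 184 and 184 CPM with ILL. The groups overlapped, and the fold of 0.983 had a 95% interval from 0.914 to 1.06 (log2 fold change -0.03, edgeR adjusted p = 0.663). Of the 15 alternative fits, none called GLUL, with log2 fold changes from -0.09 to -0.01.

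Among other genes that use glutamine, the DEGs with the largest changes were PPAT, GFPT1 and CAD. GFPT1, which starts hexosamine synthesis, went from 113 ± 3.72 CPM up to 296 ± 15.2 CPM (SD, n = 3 each), a log2 fold change of 1.39 (edgeR adjusted p = 2.9e-17). PPAT, the first enzyme of purine synthesis, fell from 42.1 ± 3.58 CPM to 8.30 ± 0.335 CPM, a log2 fold change of -2.34, and CAD, which starts pyrimidine synthesis, fell from 108 ± 8.36 CPM to 44.4 ± 6.36 CPM, a log2 fold change of -1.28 (edgeR adjusted p = 2.9e-17 and 3.3e-13, n = 3 each).

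Beyond the 9 genes, 42 other genes of these pathways were listed, all of them in the table, and 33 passed the filter. Of these, 4 were DEGs upward and 5 downward with ILL, or 27.3% in either direction, against 23.9% of all tested genes. The share was near the background, and the median log2 fold change of the 33 genes was -0.10. In the methionine and cysteine group, 1 of 12 tested genes was a DEG, SQOR, which oxidises hydrogen sulfide in mitochondria and went from 3.99 ± 1.53 CPM up to 19.1 ± 0.644 CPM (SD, n = 3 each), a log2 fold change of 2.25 (edgeR adjusted p = 2.6e-11). At the adjusted p-value alone, 6 of the 12 genes were lower and 3 were higher, where 36.9% of all tested genes were lower, 36.2% were higher and 73.1% were either, so this share was near the background too. The glutamine and glutamate group held 1 DEG higher and 3 lower of 9 tested genes, the proline and ornithine group 1 higher and 1 lower of 5, the arginine and urea cycle group 1 higher of 4, and the asparagine and aspartate group 1 lower of 3.

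**Figure D3:**
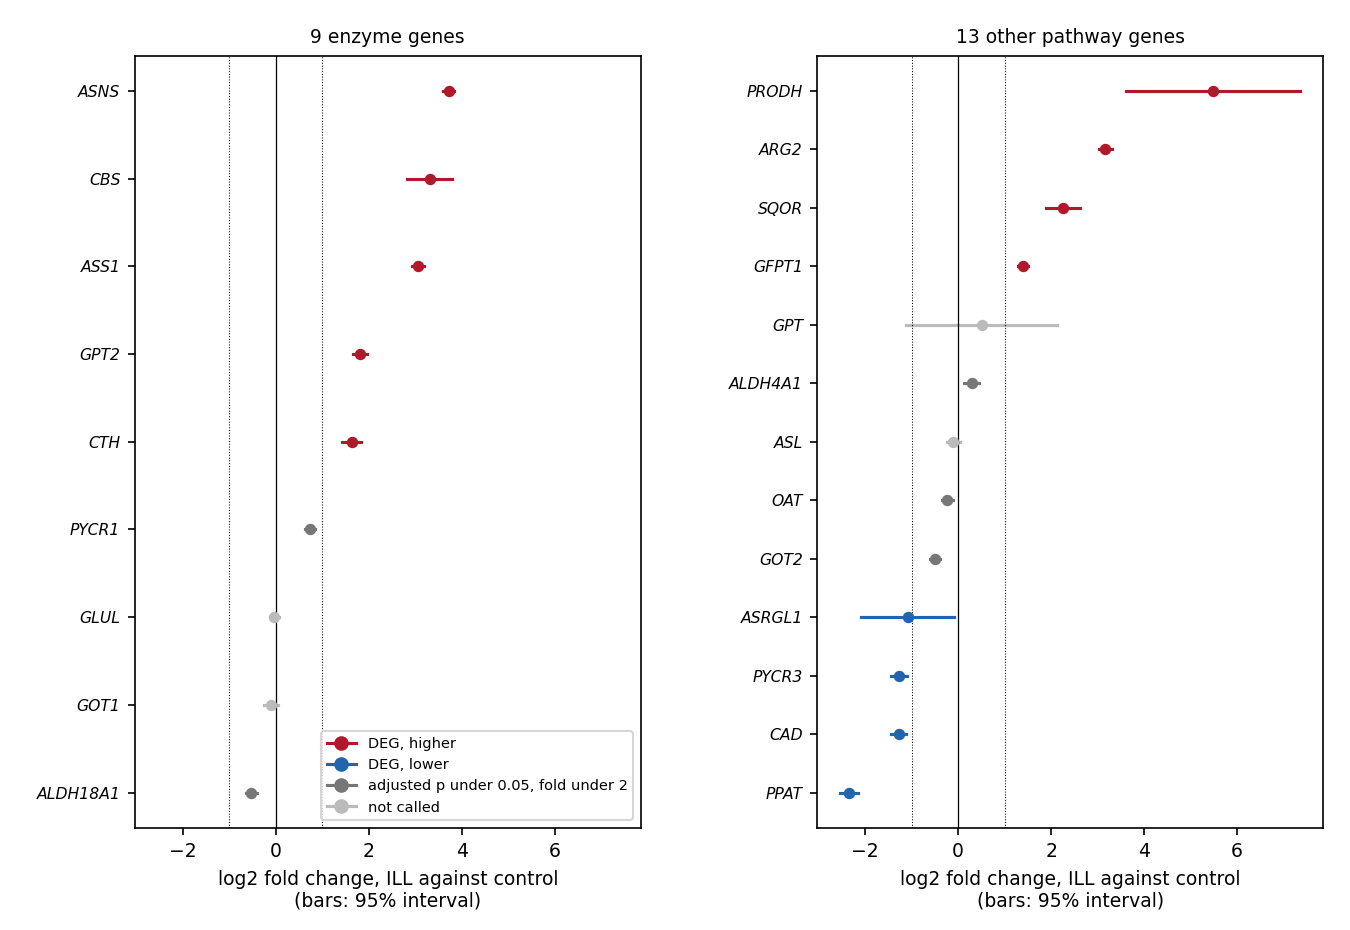
Log2 fold change of ILL against control for the 9 genes (left) and for 13 other tested pathway genes named in the text (right), with 95% intervals from the edgeR fit as bars, dotted lines at the 2-fold cutoff, DEGs in red or blue and the remaining genes in grey. ASNS, CBS, ASS1, GPT2 and CTH lie right of the cutoff, and the other pathway genes spread to both sides, from PPAT at -2.34 to PRODH at 5.48.

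Levels were compared between genes per length, as the FPKM values deposited by the authors. The order of the genes and their shares of a sum depend on the length taken for each gene. The deposited values imply 8283 bases for GLUL and 1978 for GOT1, while their longest coding GENCODE transcripts have 4719 and 2923 bases. By CPM, which ignores length, GLUL was the highest of the 9 genes in controls, at 189 against 76.0 for PYCR1. In controls the order was PYCR1, GOT1, GLUL, ALDH18A1, ASS1, ASNS, GPT2, CTH and CBS, from 36.0 ± 1.27 FPKM down to 0.370 ± 0.191 FPKM (SD, n = 3). Only GPT2 and CTH, at 5.47 ± 0.479 and 5.11 ± 0.909 FPKM, overlapped as neighbours. With ILL the order was ASNS, ASS1, PYCR1, GOT1, GLUL, GPT2, CTH, ALDH18A1 and CBS, from 115 ± 4.80 FPKM down to 3.54 ± 0.645 FPKM, and no neighbours overlapped. ASNS rose from above 59.5% of all tested genes to above 95.4% by FPKM, and ASS1 from above 64.8% to above 94.5%. The sum over the 9 genes went from 138 ± 3.79 FPKM to 361 ± 3.38 FPKM (SD, n = 3 each). Of that sum, ASNS made up 6.61% ± 0.349 in controls and 31.8% ± 1.08 with ILL, and ASS1 8.44% ± 0.322 and 25.6% ± 0.899. ALDH18A1 went from 14.3% ± 0.740 to 3.65% ± 0.0686, since its own level fell while the sum rose.

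**Figure D4:**
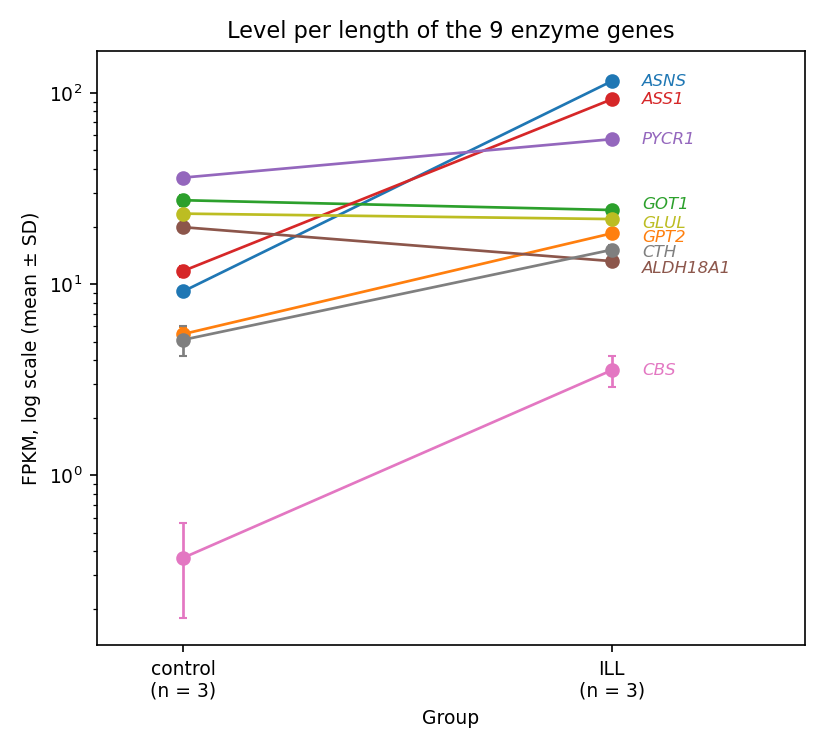
Mean level per length of each of the 9 genes in control and ILL libraries, in FPKM on a log axis, with SD bars over 3 libraries. ASNS and ASS1 pass from 9.15 and 11.7 FPKM to 115 and 92.6 FPKM and cross PYCR1, GOT1, GLUL and ALDH18A1.

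Within-library count ratios do not depend on how libraries are scaled. Of 13 pairs listed, 9 had counts above 0 in every library and a mean of at least 10 counts for both genes. In 8 of these the ILL and control libraries did not overlap, 5 with a higher and 3 with a lower ratio with ILL. Each of the 8 gave p = 0.1 in a two-sided exact permutation test (adjusted p = 0.113 over 9 ratios), the smallest value that 3 libraries against 3 allow, so this test could not pass 0.05. Of the 7 pairs described here, the largest shift was in ASNS over ASRGL1, at 4.82 on the log2 scale with 10 to 46 ASRGL1 counts per library, and the next were ASS1 over ASL at 3.16 and PYCR1 over PYCR3 at 2.01. The ratio of ALDH18A1 to ALDH4A1 fell by 0.80 and that of ALDH18A1 to OAT by 0.29.

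Regulators known for these genes were read from the same fit. ATF4 mRNA was at 280, 266 and 278 CPM in controls and at 879, 925 and 954 CPM with ILL, a log2 fold change of 1.74 (standard error 0.05, edgeR adjusted p = 7.9e-20). TRIB3 and DDIT3, targets of ATF4 that also feed back on it or act in stressed cells, had log2 fold changes of 3.07 and 2.62. ATF3 was at 3.42, and CEBPB and CEBPG, which encode C/EBP partners of ATF4, at 1.497 and 1.17. NFE2L2, which encodes NRF2, was at 0.88 and under the 2-fold cutoff. All 7 were higher in every ILL library than in any control library, as were 37.5% of all tested genes.

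Likeness was measured as the root mean square difference, over the 6 libraries, of log2 CPM centred on the control mean. For ASNS, the nearest of 12038 other genes were POU2F3 at 0.0943, SECTM1 at 0.107 and ALDH1L2 at 0.111, with log2 fold changes of 3.68, 3.72 and 3.64. ALDH1L2 is a mitochondrial enzyme of folate metabolism and POU2F3 is a transcription factor. For ASS1 the nearest was MYL9, a myosin light chain, at 0.0475. GPT2 and CTH were each other's nearest member, at 0.195, as were GOT1 and GLUL, at 0.0860, and ASS1 and CBS, at 0.463. The nearest genes to ALDH18A1 were GPI, a glycolytic enzyme, at 0.0114 and PPARG, a nuclear receptor, at 0.0131. With libraries in only 2 groups, this measure mostly follows the size of the fold change.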

How the data were processed

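Total RNA was made into mRNA libraries with Illumina kits. The aligner, the counting program and the annotation are not given in the sources used here. The submitters' processing notes name GRCh38 and DESeq2. Whole-number read counts and FPKM were deposited by the authors, with gene symbols as rows and 1 column per library. Dividing the counts by the library total and by a length of whole bases for each gene returned the deposited FPKM for 100% of 88055 nonzero values within 0.1%. Conditions and replicate numbers came from the sample titles.

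Genes were filtered with filterByExpr, which left 13066 of 19470, and scaled by TMM. The quasi-likelihood test of edgeR (4.0.16, R 4.3.3) compared ILL with control, and p-values were adjusted by Benjamini-Hochberg over all tested genes. The biological coefficient of variation was 0.0717, and the spread between replicates, not depth, sets the precision of most genes. Intervals of fold changes are the estimate plus or minus the t quantile times the standard error. Alternatives were DESeq2 1.42.0 (its size factors and its Wald test), scaling by library size, dropping the filter, requiring 10 counts in all libraries, a block for the replicate number, leaving out 1 library at a time, and limma 3.58.1 on log2 of FPKM plus 1 or 0.1, with or without a mean of at least 1 FPKM. CBS plus CBSL without control replicate 1 was added after seeing the data. Gene positions and shared 100-base windows come from GENCODE release 29 on GRCh38.

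The genes and lists were chosen with earlier results of these data known. Named genes are the 9 genes, the DEGs with the largest change in each pathway group (at most 3, mean of at least 1 CPM), the genes of the ratios, known regulators, CBSL and the nearest genes by likeness. Some listed genes and ratios are not reported here. Protein sequences were not analysed here.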

Additional observations from a re-analysis of the deposited data

How the results depend on the processing

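The 5 higher DEGs among the 9 genes and the absence of a lower one held in all 15 alternatives, including the fits that each left out 1 library. At the adjusted p-value alone, 6 genes were higher in each, from 6 to 6 without 1 library, and the number lower was 1, from 1 to 1 without 1 library, and 2 with library size only and with limma on FPKM at a mean of at least 1, logged after adding 1 or 0.1. The second was GOT1, at -0.17, -0.16 and -0.17 in these fits. Library size only moved the median of all genes to -0.0702 and limma on log2 of FPKM plus 0.1 to -0.101. CBS was lowest, at 1.73, with limma on log2 of FPKM plus 1, a scale that shrinks low genes. Of the pathway genes, ASRGL1 lost its call under DESeq2's size factors, no filter, the Wald test and the block, and GPT ranged from -0.0709 to 2.34 without 1 library. ASL passed the test in the fits that called GOT1, ALDH4A1 lost its call in limma without the filter, where PRODH, at 0.458, and ASRGL1, at -0.222, were also below the 2-fold cutoff, and CBSL lost its call under the Wald test (adjusted p = 0.119). Limma on log2 of FPKM plus 1 gave 668 DEGs higher and 923 lower, 680 and 929 without the filter, and plus 0.1 gave 909 higher, against 1635 and 1485. No searched motif lay within 50 bases of a RefSeq start, so each count of genes fell to 0.

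Same-numbered libraries did not deviate together, with correlations of 0.0107, -0.0218 and -0.0179, so the main fit did not pair the samples by number. Whether same-numbered libraries were prepared together cannot be told from these values. With the replicate number as a block, DEGs were 1627 higher and 1484 lower, and the calls of the 9 genes did not change.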
